A study of Mus musculus with 6 samples.

Results

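The genes described here make, lengthen, desaturate and activate fatty acids. They are 32 genes chosen by name from the 23478 genes of the deposited count table: 4 regulators, 4 genes of citrate and acetyl-CoA supply, 3 of carboxylation and synthesis, 5 desaturases, 8 of elongation, 7 acyl-CoA synthetases and the lipid droplet protein gene Pnpla3. All 32 had a row, and 28 had enough counts to be tested. RNA was sequenced from alveolar type 2 (AT2) cells, the lung epithelial cells that secrete surfactant, of adult mice of mixed strain background. The Abca3 cKO group (n = 3) carries a conditional deletion of Abca3, the transporter that loads phospholipid into the storage organelles of surfactant, and the other group is labelled control (n = 3). Mice of both groups received tamoxifen, which the series' design places 6 days before the cells were taken and which another label can be read as having been given over 6 days. The cells had been purified by depletion of other cells. The labels and protocols do not name the Cre driver, the exons deleted or the alleles that control mice carry. They do not say whether each library is a separate animal, and the p-values therefore measure only how these libraries spread.

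De novo fatty acid synthesis starts from citrate, which leaves the mitochondrion, is split to acetyl-CoA, carboxylated to malonyl-CoA and joined into palmitate by fatty acid synthase. Palmitate is then activated to acyl-CoA, and in that form it can be lengthened by elongases and given double bonds by desaturases before it enters a lipid. AT2 cells use this pathway to supply the palmitate-rich phosphatidylcholine of surfactant, and the transcription factor SREBP1 is the main known activator of its genes.

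Library totals ran from 23531330 to 26071229 counts. Levels are CPM, counts scaled to a common library size after TMM normalization, which compare 1 gene between libraries. To compare genes with each other the authors' deposited RPKM is used, which divides by transcript length. For some genes the RPKM is not the deposited count divided by length. Scgb1a1 had 1776908 and 1943980 counts but an RPKM of 0 in Abca3 cKO replicate 1 and control replicate 2. Abca3 itself stood at 571, 611 and 606 CPM in Abca3 cKO replicates 1 to 3 and at 635, 694 and 689 CPM in the controls. This is a log2 fold change of −0.17 (edgeR quasi-likelihood test, adjusted p = 0.696), and on the RPKM scale it was −0.32 (limma, unadjusted p = 0.0143 to 0.0184, adjusted p = 0.468 to 0.556). All Abca3 cKO values lay below all controls on both scales. Because the deleted exons are not given, the level over the whole gene does not check the labels. Control replicate 2 differed from the other 5 libraries in sex-linked genes, with Xist at 2345 CPM against 5.36 to 9.36 CPM in the rest and no counts of Ddx3y, Kdm5d or Eif2s3y. Values without it are therefore given beside the main differences. The 10 AT2 markers summed to 73677 to 85310 CPM in Abca3 cKO and 65673 to 76984 CPM in controls. In such bulk samples fewer cells of a type and less RNA per cell cannot be told apart. The club cell marker Scgb1a1 averaged 60835 CPM in Abca3 cKO (74981, 59429 and 48096 CPM) and 67103 CPM in controls (67707, 75051 and 58551 CPM). The 6 club cell markers summed to 53937 to 85065 CPM in Abca3 cKO and 65403 to 83544 CPM in controls, a range that overlaps that of the AT2 markers. The levels given are therefore those of the whole preparation.

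None of the 28 tested genes passed an adjusted p of 0.05 with edgeR, against 0.380% of the 14477 genes tested (55 genes), 0.262% higher and 0.117% lower in Abca3 cKO. The smallest p was that of Elovl1, an elongase of very long chain fatty acids, which stood higher in Abca3 cKO. At an unadjusted p under 0.05 there were 6 of the 28, or 21.4%, against 9.23% of all genes tested. Elovl1 and Acly stood higher, where 5.07% of all genes did, and Acsl3, Slc25a1, Scd2 and Fads1 stood lower, where 4.16% did. In 4 of the 28, or 14.3%, all values of 1 group lay beyond those of the other, close to the 14.1% of all genes tested. Elovl1 was the 1 that lay higher (7.34% of all genes) and Slc25a1, Elovl5 and Acsl3 lay lower (6.76% of all genes). DESeq2 called 1 of the 28, Elovl1, where it called 1.67% of all genes (241). The median log2 fold change of the 28 was −0.08, against 0.00 over all genes tested. A negative value was found in 18 of the 28, or 64.3%, against 49.7% of all genes tested. By class the median was −0.08 for the regulators, −0.15 for citrate and acetyl-CoA supply, −0.04 for carboxylation and synthesis, −0.28 for the desaturases, −0.17 for elongation and 0.06 for the acyl-CoA synthetases.

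**Figure D1:**
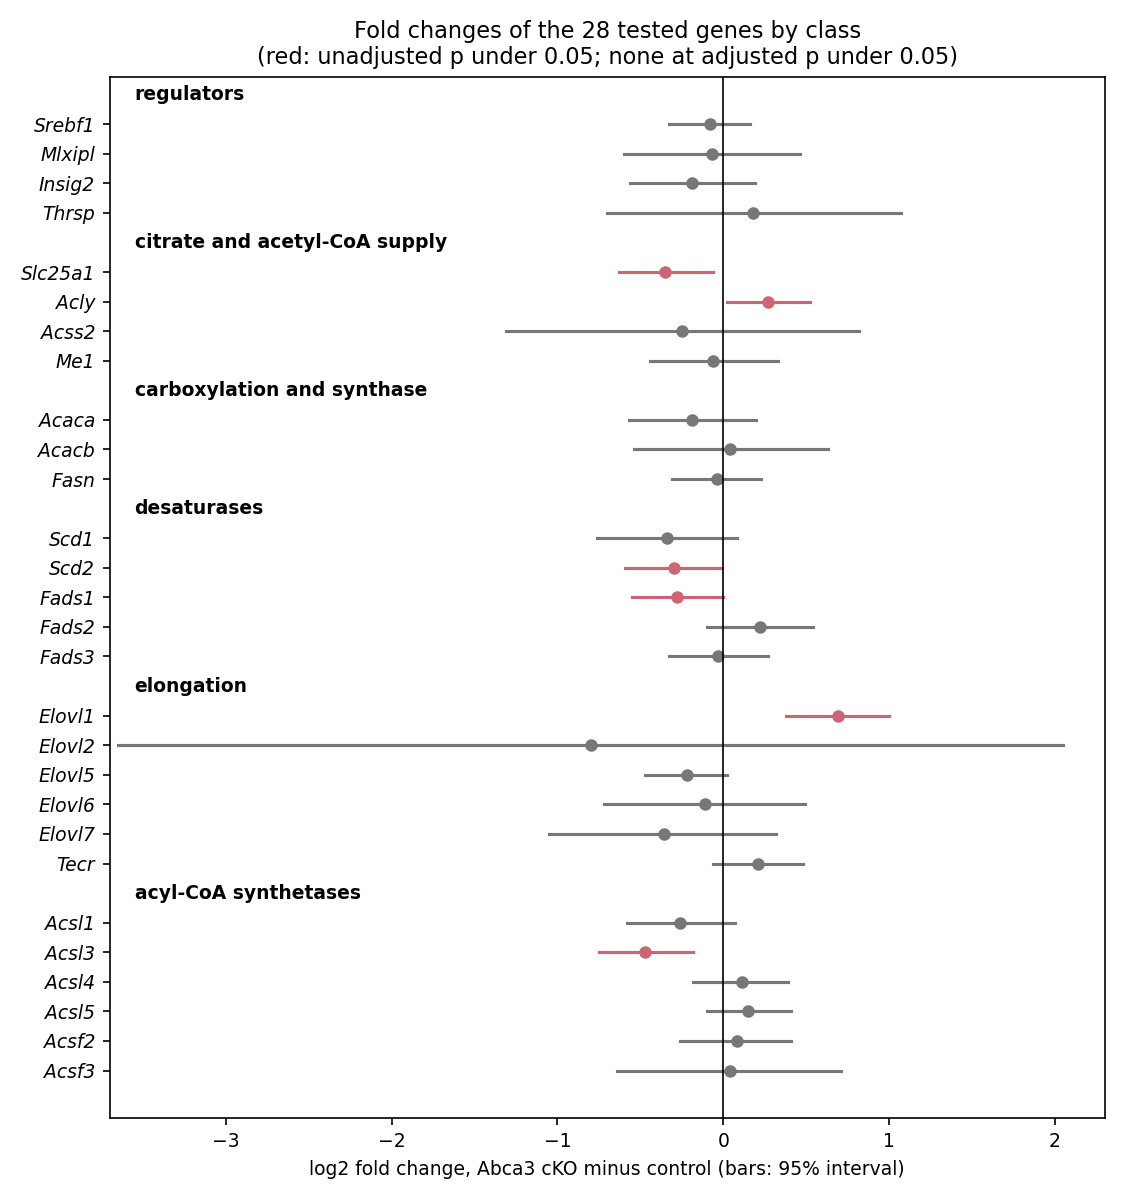
Log2 fold change of each of the 28 tested genes (x axis, Abca3 cKO minus control) by class, with bars for the 95% interval of edgeR's quasi-likelihood fit and red for an unadjusted p under 0.05. Elovl1, at 0.69, lies farthest to the right; the very wide bar of Elovl2 belongs to a gene with 0 to 40 counts per library.

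Of the 6 genes with an unadjusted p under 0.05, 4 had a proximal promoter in the sequence table used: Elovl1, Acly, Acsl3 and Slc25a1. The 250 bases before their RefSeq start (GRCm38.p6) are shown because of that unadjusted p. None of these genes passed an adjusted p of 0.05 in the main edgeR fit. Capitals mark 3 motifs searched on both strands, the CCAAT box (CCAAT, bound by NF-Y), the GC box (GGGCGG, bound by SP1) and the E-box (CACGTG, a form read by USF and ChREBP proteins).
Elovl1: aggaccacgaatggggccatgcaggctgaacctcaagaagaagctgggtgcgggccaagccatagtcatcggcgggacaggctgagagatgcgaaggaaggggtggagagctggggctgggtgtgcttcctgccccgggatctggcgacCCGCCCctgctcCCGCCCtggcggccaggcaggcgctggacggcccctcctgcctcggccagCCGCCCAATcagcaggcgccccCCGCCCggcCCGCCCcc
Acly: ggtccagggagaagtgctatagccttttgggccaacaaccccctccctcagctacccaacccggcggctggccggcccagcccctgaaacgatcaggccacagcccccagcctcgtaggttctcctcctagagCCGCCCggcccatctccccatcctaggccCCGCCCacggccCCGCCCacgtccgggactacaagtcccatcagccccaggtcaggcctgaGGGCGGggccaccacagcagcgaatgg
Acsl3: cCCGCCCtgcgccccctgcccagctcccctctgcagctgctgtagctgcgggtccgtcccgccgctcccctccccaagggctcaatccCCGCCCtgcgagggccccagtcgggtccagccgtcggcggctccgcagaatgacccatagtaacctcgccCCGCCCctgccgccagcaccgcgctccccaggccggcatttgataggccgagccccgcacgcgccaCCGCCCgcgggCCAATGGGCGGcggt
Slc25a1: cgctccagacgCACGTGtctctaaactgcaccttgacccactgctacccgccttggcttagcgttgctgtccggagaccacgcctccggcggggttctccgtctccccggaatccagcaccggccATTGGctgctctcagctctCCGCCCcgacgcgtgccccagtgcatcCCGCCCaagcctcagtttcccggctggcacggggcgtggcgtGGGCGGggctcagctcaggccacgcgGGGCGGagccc
The windows lie on the plus strand at chr4:118427843-118428092 for Elovl1 and chr1:78657575-78657824 for Acsl3, and on the minus strand at chr11:100528001-100528250 for Acly and chr16:17928220-17928469 for Slc25a1. Elovl1 holds 5 GC boxes and 1 CCAAT box, which shares 2 bases with one of them, and Acsl3 also holds 5 GC boxes and 1 CCAAT box. Acly holds 4 GC boxes and no CCAAT box. Slc25a1 holds 4 GC boxes, 1 CCAAT box and 1 E-box. All 4 windows thus hold GC boxes, which were found in 32.7% of the 32851 promoter windows in the table and in 18 of the 28 windows of these fatty acid genes. The CCAAT box was found in 33.8% of all windows and 17 of the 28, and the E-box in 6.02% and 3 of the 28. A sterol regulatory element searched as TCACNCCAC was found in 1.05% of all windows and in none of the 28, which says only that these letters are not in these windows. Scd1, Scd2, Fads1 and Elovl3 have no entry in the table. The 28 are 1 window per gene, the nearest to its GENCODE start, while the 32851 can hold several per gene, so the shares compare unlike sets. The windows of Acaca, Acacb, Tecr and Acsl5 lay 65766, 18983, 13480 and 1431 bases from that start.

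None of the 4 regulators had an unadjusted p under 0.05. Srebf1, which encodes SREBP1 and is the main switch of these genes, stood at 81.6, 84.0 and 75.2 CPM in Abca3 cKO and at 78.2, 86.4 and 90.2 CPM in controls. The groups overlapped. Their log2 fold change was −0.08 (SE 0.114, edgeR adjusted p = 0.900), and the 95% interval of the fold ran from 0.798 to 1.12. Insig2, which holds the SREBP precursor in the endoplasmic reticulum, stood at 58.9, 47.5 and 34.7 CPM in Abca3 cKO and at 47.0, 56.6 and 56.9 CPM in controls. Its lowest value was in Abca3 cKO replicate 3 and its highest in Abca3 cKO replicate 1, so the spread within that group exceeded the difference between groups. Mlxipl, which encodes the glucose-responsive factor ChREBP, averaged 9.14 ± 2.36 CPM in Abca3 cKO and 9.62 ± 1.82 CPM in controls (SD, n = 3 each). Thrsp, a small lipogenic protein known as Spot 14, was the most uneven of the 4. It stood at 4.39, 5.61 and 5.94 CPM in Abca3 cKO and at 3.25, 2.39 and 8.37 CPM in controls, a coefficient of variation of 69.2% in the controls. Its log2 fold change of 0.18 (edgeR adjusted p = 0.949) became 0.91 without control replicate 3 (unadjusted p = 0.0250) and −0.13 without control replicate 2.

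The genes that move citrate out of the mitochondrion and turn it into acetyl-CoA lay on opposite sides. Slc25a1 (chromosome 16, 17925223 to 17928219), the mitochondrial citrate carrier, stood at 43.0, 48.1 and 47.9 CPM in Abca3 cKO and at 64.2, 50.7 and 61.9 CPM in controls. All 3 Abca3 cKO values lay below all 3 controls, though the gap to control replicate 2 was small. The log2 fold change was −0.35 (SE 0.134), with unadjusted p = 0.0207 and adjusted p = 0.402 by edgeR. Without control replicate 2 it was −0.45 (unadjusted p = 0.00726), and the unadjusted p stayed under 0.05 in 3 of the 6 fits that left out 1 library.

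Acly (chromosome 11, 100476353 to 100528000), the ATP citrate lyase that splits the exported citrate, stood at 380.1, 462 and 458 CPM in Abca3 cKO and at 346, 345 and 387 CPM in controls. Replicates 2 and 3 of Abca3 cKO were above every control, while replicate 1 lay just below control replicate 3. The log2 fold change was 0.27 (SE 0.118, unadjusted p = 0.0372, adjusted p = 0.490 by edgeR), and the unadjusted p stayed under 0.05 in 2 of the 6 fits without 1 library. Without control replicate 2 the log2 fold change was 0.24 (unadjusted p = 0.0924).

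The ratio of Acly to Slc25a1 RPKM within a library, a quantity chosen after their values were seen, was 2.73, 2.93 and 3.02 in Abca3 cKO and 1.68, 2.03 and 1.85 in controls. The groups did not overlap on this ratio, which does not depend on library scaling. Because the pair joins a gene seen to be higher with one seen to be lower, the ratio adds no separate support for either difference. Me1, the malic enzyme that supplies cytosolic NADPH, stood at 185, 169 and 236 CPM in Abca3 cKO and at 264, 169 and 179.9 CPM in controls, fully overlapping. Acss2, which makes acetyl-CoA from acetate, varied widely within Abca3 cKO alone, at 60.2, 41.0 and 19.8 CPM, against 49.0, 35.0 and 59.6 CPM in controls. Its log2 fold change of −0.25 (SE 0.430) turned to 0.08 without Abca3 cKO replicate 3.

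**Figure D2:**
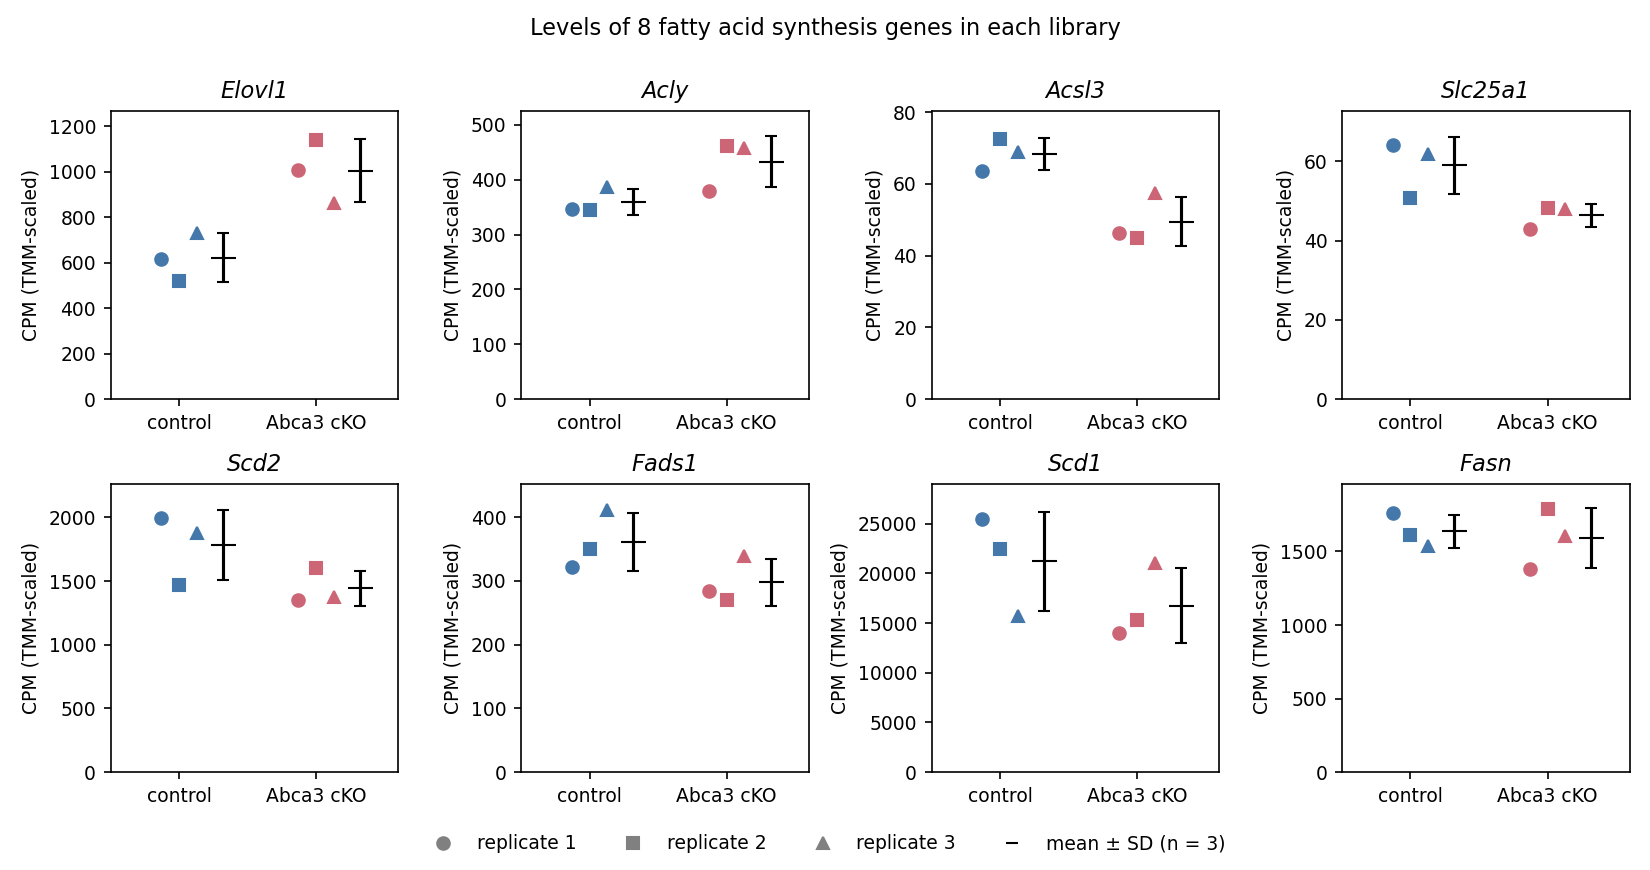
CPM on TMM-scaled library sizes (y axis, from 0) of 8 genes in the 3 control and 3 Abca3 cKO libraries; symbols mark replicate numbers, and the bar beside each group is its mean ± SD (n = 3). The groups are apart for Elovl1, Acsl3 and Slc25a1, nearly so for Acly, and overlap for Scd2, Fads1, Scd1 and Fasn.

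None of the 3 genes of carboxylation and synthesis had an unadjusted p under 0.05. Fasn, the fatty acid synthase that builds palmitate, stood at 1379, 1786 and 1603 CPM in Abca3 cKO and at 1761, 1612 and 1540 CPM in controls. Its mean was 1589 ± 204 CPM against 1638 ± 112 CPM, for a log2 fold change of −0.04 (SE 0.126, edgeR adjusted p = 0.963), and the 95% interval of the fold ran from 0.805 to 1.17. Acaca, the cytosolic acetyl-CoA carboxylase that makes malonyl-CoA, stood at 256, 319 and 421 CPM in Abca3 cKO and at 379, 439.7 and 316 CPM in controls. The lowest library was Abca3 cKO replicate 1 and the highest control replicate 2, and without either the fold change was nearer 0 (log2 −0.03 and −0.07, against −0.19 with all libraries). Without Abca3 cKO replicate 3 it was −0.40 (unadjusted p = 0.0285). Of the 50-base words in annotated Acaca transcripts, 30.4% also occur in transcripts of other genes, and 28.3% of those of Me1 do, so their counts could hold or lose reads shared with those copies. Acacb, the mitochondrial form that restrains fatty acid oxidation, averaged 10.1 ± 2.71 CPM against 9.79 ± 3.05 CPM.

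The desaturases contained the most abundant transcript of the pathway. Scd1, the stearoyl-CoA desaturase that makes oleate and palmitoleate, took 1.40%, 1.51% and 2.08% of all counts in Abca3 cKO and 2.56%, 2.23% and 1.61% in controls. It ranked 4 to 8 among all genes by count in the 6 libraries. On the CPM scale it stood at 13957, 15310 and 21011 in Abca3 cKO and at 25420, 22493 and 15721 in controls. The highest Abca3 cKO library exceeded the lowest control, and the log2 fold change of −0.34 (SE 0.193) had an unadjusted p of 0.103 and an adjusted p of 0.657 by edgeR. It was −0.54 without Abca3 cKO replicate 3 (unadjusted p = 0.0140), −0.52 without control replicate 3 (0.0126) and −0.19 without control replicate 1 (0.387).

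Scd2, the second stearoyl-CoA desaturase, stood at 1351, 1603 and 1374 CPM in Abca3 cKO and at 1993, 1469 and 1881 CPM in controls. Control replicate 2 lay within the Abca3 cKO range and the other 2 controls above it. The log2 fold change was −0.30 (SE 0.136, unadjusted p = 0.0418, adjusted p = 0.507 by edgeR), and −0.42 without control replicate 2 (unadjusted p = 0.00734). It was −0.22 without control replicate 1 (unadjusted p = 0.191), and the unadjusted p stayed under 0.05 in 2 of the 6 fits without 1 library. With the replicate block the unadjusted p was 0.0776, and on RPKM it ran from 0.0707 to 0.0753. Different libraries carried the differences of Scd1 and Scd2. The ratio of Scd1 to Scd2 RPKM was highest in Abca3 cKO replicate 3 at 19.5 and control replicate 2 at 18.5, and lowest in control replicate 3 at 9.30. Scd1 and Scd2 share 50-base words with each other, with Scd3 and Scd4 and with 1 further annotated gene, in all 4.56% of the words of Scd1 and 3.97% of those of Scd2. Scd3 had 6579 to 11022 counts per library but 0.135 to 0.423 RPKM, and Scd4 1694 to 2848 counts but 0.0451 to 0.381 RPKM. How each measure assigned reads shared among these genes was not tested.

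Fads1, the delta-5 desaturase of polyunsaturated fatty acids, stood at 284, 269.9 and 339 CPM in Abca3 cKO and at 322, 350 and 411 CPM in controls. Only Abca3 cKO replicate 3 and control replicate 1 crossed, and the log2 fold change was −0.28 (SE 0.129, unadjusted p = 0.0488, adjusted p = 0.536 by edgeR). It was −0.30 without control replicate 2 (unadjusted p = 0.0566) and −0.18 without control replicate 3 (0.205). The unadjusted p stayed under 0.05 in 2 of the 6 fits without 1 library. Fads2, the delta-6 desaturase that acts before it in the same pathway, had a positive value. It averaged 33.0 ± 2.70 CPM in Abca3 cKO and 28.3 ± 2.72 CPM in controls, with unadjusted p = 0.162 for a log2 fold change of 0.22. The Fads1 to Fads2 ratio of RPKM, chosen after the values were seen, was 2.44, 2.77 and 3.19 in Abca3 cKO and 3.44, 4.34 and 3.91 in controls, with no overlap. This pair too joins a gene seen to be lower with one seen to be higher, so the ratio adds no separate support. Fads3, a desaturase of sphingoid bases, averaged 88.4 ± 17.8 CPM against 90.2 ± 3.02 CPM.

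Elovl1 (chromosome 4, 118428093 to 118432953) showed the clearest difference. It stood at 1009, 1139 and 862 CPM in Abca3 cKO and at 615, 518 and 732 CPM in controls, so the lowest Abca3 cKO library was above the highest control. The mean was 1003 ± 138 CPM against 622 ± 107 CPM (SD, n = 3), a fitted fold of 1.61 with a 95% interval from 1.30 to 2.00. The log2 fold change of 0.69 (SE 0.145) had an unadjusted p of 0.000287 and ranked 68 among all genes by p. Its adjusted p of 0.0610 by edgeR was just above the threshold, and a two-sided exact permutation test gave 0.10, the smallest p that 3 against 3 libraries allow.

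DESeq2 called Elovl1 (adjusted p = 0.000863), as did edgeR without a count filter (0.00657) and without control replicate 3 (0.0432). Over all 16 alternatives the adjusted p ran from 0.000863 to 0.347, and the log2 fold change from 0.58 to 0.82. The value without control replicate 2 was 0.58 (unadjusted p = 0.00166), and the unadjusted p stayed under 0.05 whichever of the 6 libraries was left out. The 3′ end of Elovl1 overlaps Cdc20, a cell cycle gene on the opposite strand, by 53 exon bases. Cdc20 stood at 4.30, 3.50 and 2.99 CPM in Abca3 cKO and 1.10, 1.97 and 1.94 CPM in controls, levels far under those of Elovl1.

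The other 4 tested elongases had negative log2 fold changes, except that Elovl6 was at 0.00 to 0.01 on RPKM and 0.06 without Abca3 cKO replicate 2, and Elovl2 at 0.72 without control replicate 2. With all libraries none of the 4 had an unadjusted p under 0.05. Elovl5, which lengthens polyunsaturated fatty acids, stood at 291, 278 and 301 CPM in Abca3 cKO and at 333, 307 and 375 CPM in controls. The groups did not overlap, but the log2 fold change was only −0.22 (SE 0.114, unadjusted p = 0.0684, adjusted p = 0.605 by edgeR). It was −0.29 without control replicate 2 (unadjusted p = 0.0332) and −0.15 without control replicate 3 (0.231). Elovl7, an elongase of saturated very long chains, stood at 66.5, 81.6 and 118 CPM in Abca3 cKO and at 101, 157 and 84.6 CPM in controls. Its log2 fold change of −0.36 was −0.06 without control replicate 2 and −0.62 without Abca3 cKO replicate 3 (unadjusted p = 0.0394). Elovl6, which turns palmitate into stearate, was scarce, at 3.66 to 5.49 CPM over all libraries. Tecr, the reductase that completes each elongation cycle, stood at 300.5, 354 and 389 CPM in Abca3 cKO and at 313, 269 and 322 CPM in controls. Its log2 fold change was 0.21, with an SE of 0.126 and an edgeR adjusted p of 0.675. On the RPKM scale Elovl1 made up 87.7%, 88.9% and 84.3% of the summed level of the 7 elongases in Abca3 cKO and 78.7%, 75.8% and 81.3% in controls. Relative to Elovl5 its RPKM was 7.86, 8.99 and 6.26 times as high in Abca3 cKO and 4.15, 3.81 and 4.74 times as high in controls. This pair too was chosen after the values were seen and joins a higher gene with a lower one, so it adds no separate support.

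**Figure D3:**
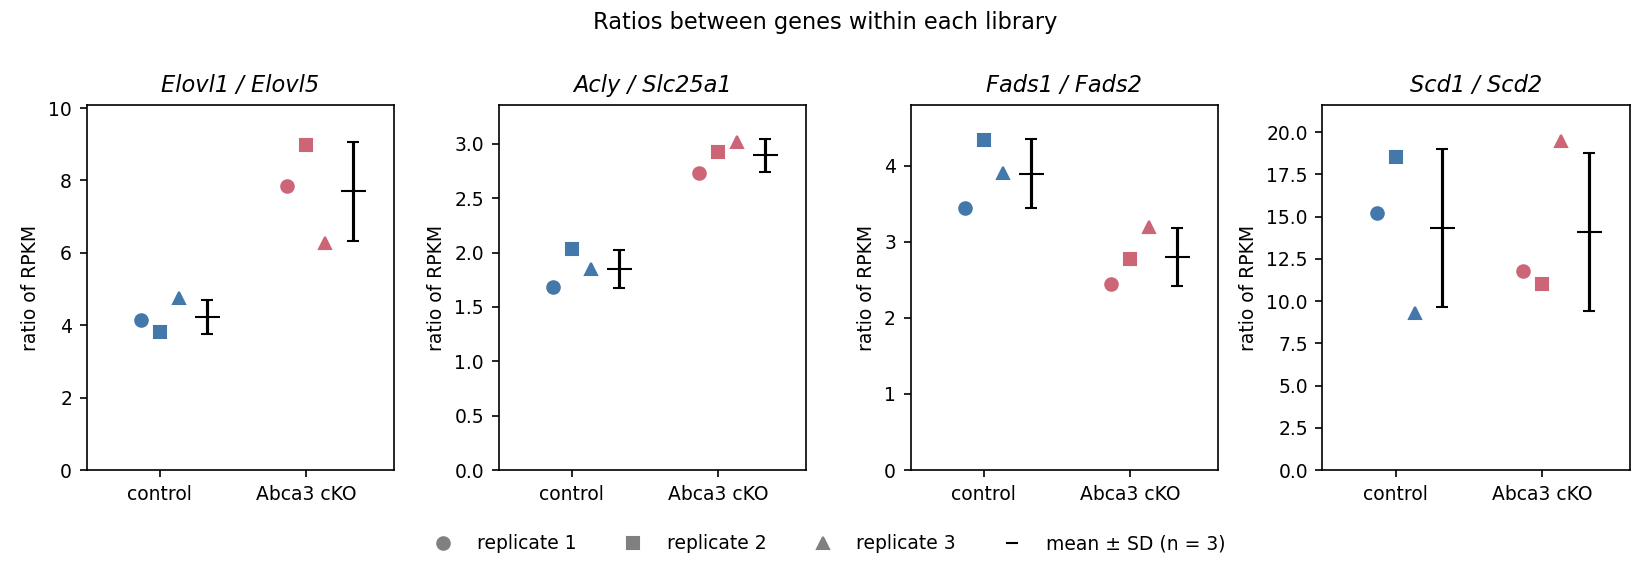
Ratio of deposited RPKM between pairs of genes within each library (y axis, from 0), with the mean ± SD of each group (n = 3) beside the points; the pairs were chosen after the values were seen. The groups are apart for Elovl1 to Elovl5, Acly to Slc25a1 and Fads1 to Fads2, and interleaved for Scd1 to Scd2. Each pair that is apart joins a gene seen to be higher with one seen to be lower.

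The remaining elongases were at the limit of detection. Elovl3, known from skin and brown fat, had 0 counts in all 6 libraries, and a count of 0 allows up to 3 counts, or 0.116 to 0.127 CPM, for counting error only. Elovl4, known from retina and skin, had 18, 0 and 12 counts in Abca3 cKO and 5, 1 and 2 in controls and was not tested. Elovl2, an elongase of polyunsaturated fatty acids, had 0, 20 and 9 counts in Abca3 cKO and 11, 40 and 0 in controls, and its log2 fold change of −0.80 had an SE of 1.30.

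Among the acyl-CoA synthetases, most of which activate long chain fatty acids, Acsl3 (chromosome 1, 78657825 to 78707743) stood lower. Acsl3, a synthetase of the endoplasmic reticulum and of lipid droplets, was at 46.2, 44.8 and 57.4 CPM in Abca3 cKO and at 63.5, 72.5 and 69.0 CPM in controls, with no overlap. The log2 fold change was −0.47 (SE 0.133), with an unadjusted p of 0.00348 and an adjusted p of 0.208 by edgeR. The unadjusted p stayed under 0.05 in all 6 fits without 1 library, in which the log2 fold change ran from −0.59 to −0.40, and it was −0.42 without control replicate 2 (unadjusted p = 0.0153). Exons of Acsl3 overlap those of Utp14b over 5.6% of their length.

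The other 5 tested synthetases gave overlapping groups. Acsl5, the synthetase with the highest RPKM, stood at 368, 357 and 422 CPM in Abca3 cKO and at 320.3, 333 and 378 CPM in controls (log2 fold change 0.15, adjusted p = 0.776 by edgeR). Acsl4, which prefers arachidonate, stood at 864, 736 and 1008 CPM in Abca3 cKO and at 768, 891 and 765 CPM in controls. Acsl1, a synthetase best known from liver, fat and heart, stood at 82.0, 57.3 and 62.6 CPM in Abca3 cKO and at 85.8, 87.4 and 67.9 CPM in controls (log2 fold change −0.26, unadjusted p = 0.111), and 9.91% of its exon bases overlap another annotated gene. Acsf2 averaged 36.7 ± 3.57 CPM against 34.8 ± 5.76 CPM, and 33.3% of its 50-base words, the highest share among the 32 genes, also occur in another gene. Acsf3, the malonyl-CoA synthetase of mitochondria, averaged 4.73 ± 0.890 CPM against 4.62 ± 1.43 CPM. Acsl6, known from brain, had 0, 2 and 0 counts in Abca3 cKO and 14, 4 and 8 in controls. Its groups did not overlap, but its counts were too low for it to be tested. Pnpla3, a lipid droplet protein, had 23, 0 and 1 counts in Abca3 cKO and 0, 1 and 8 in controls and was not tested either.

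**Figure D4:**
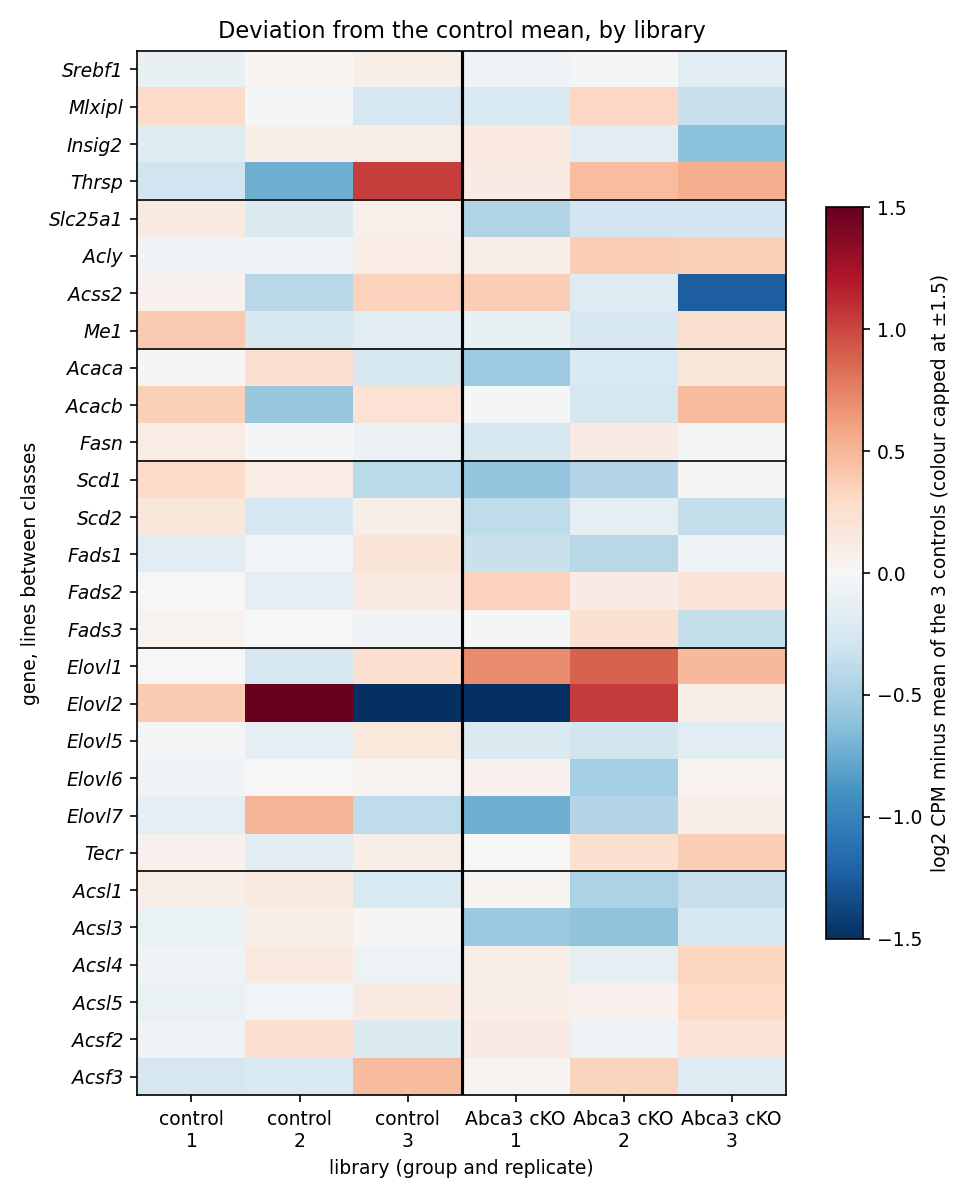
Deviation of log2 CPM from the mean of the 3 controls (colour, capped at ±1.5) for the 28 tested genes (rows, lines between classes) in each library (columns). Among others, Elovl1, Acly, Thrsp, Fads2 and Acsl5 are red in all 3 Abca3 cKO libraries, and Acsl3, Slc25a1, Scd2, Fads1 and Elovl5 are blue. Slc25a1 and Scd2 are also blue in control replicate 2. Thrsp, Acss2 and Elovl2 differ most between libraries of 1 group.

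On the deposited RPKM, a few genes carried most of the pathway's RNA. By mean RPKM over the 6 libraries the order was Scd1 at 1593, Tecr at 243, Elovl1 at 241, Scd2 at 114 and Fasn at 108. Acsl5 followed at 68.1, Fads1 at 47.2, Acsl4 at 46.6, Acly at 44.4 and Elovl5 at 41.2. By RPKM, Tecr and Elovl1 did not differ beyond their spread over all libraries, nor did Scd2 and Fasn. Nor did the 4 genes from Fads1 to Elovl5. Counts per exon base give another order. Scd2 averaged 1443 CPM in Abca3 cKO and 1781 CPM in controls over 5464 annotated exon bases, and Tecr 348 and 301 CPM over 2191. Scd2 thus had more counts per exon base than Tecr but a lower RPKM. Acsl4 averaged 869 and 808 CPM over 5405 exon bases and Fads1 298 and 361 CPM over 4812, so by counts they were not alike. Elovl1 lay at 298 ± 29.2 RPKM in Abca3 cKO, with Tecr at 257 ± 34.1 RPKM, and in controls at 185 ± 33.4 RPKM, with Tecr at 228 ± 25.2 RPKM. By RPKM Elovl1 was above Tecr in Abca3 cKO replicates 1 and 2, and below it in Abca3 cKO replicate 3 and in all 3 controls. Scd1 alone made up 51.7%, 51.4% and 60.1% of the summed RPKM of the 32 genes in Abca3 cKO and 66.4%, 66.4% and 52.8% in controls. On this scale the groups of Acly did not overlap, while those of Acsl3 and Elovl5, apart on CPM, did. The regulators were far lower, from 13.8 RPKM for Srebf1 to 1.62 RPKM for Mlxipl. Acacb at 0.862 RPKM stood well under Acaca at 17.9 RPKM, and Elovl6 at 0.305 RPKM well under Elovl1.

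**Figure D5:**
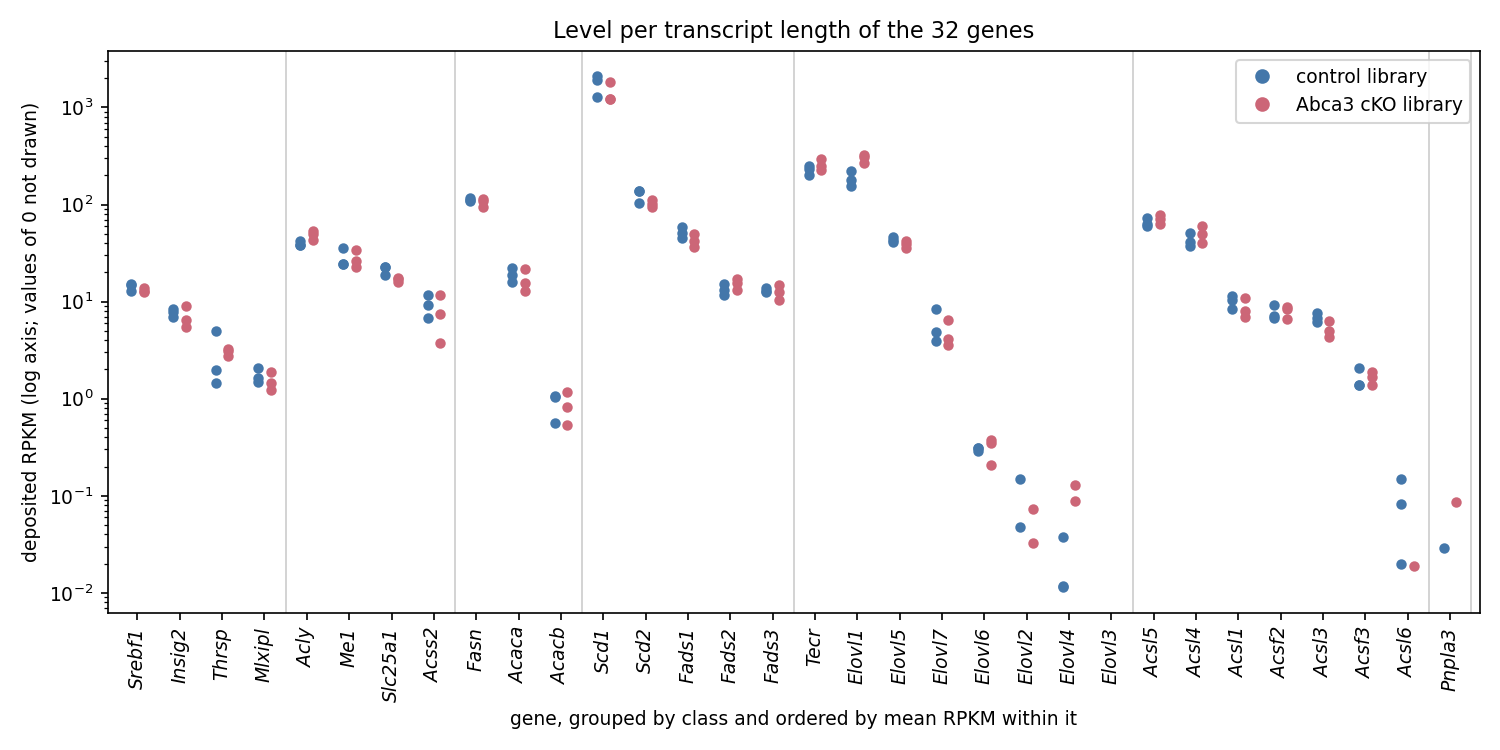
Deposited RPKM (log axis, values of 0 not drawn) of the 32 genes in each control and Abca3 cKO library, grouped by class. Scd1 lies above all others, the groups do not overlap for Elovl1, Acly and Slc25a1 among the tested genes, and Elovl3 has no point because it was listed at 0 in every library.

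Other genes of the pathway were taken from 9 lists of 76 genes. In the deposited data 75 were found and 69 tested, and none passed an adjusted p of 0.05 with edgeR, while DESeq2 called 2 (1.67% of all genes). An unadjusted p under 0.05 was found for 13, or 18.8% against 9.23% of all genes tested. Of these 5 stood higher, where 5.07% of all genes did, and 8 lower, where 4.16% did. Their median log2 fold change was −0.02. Among the remaining enzymes of elongation 1 of 5 stood higher at an unadjusted p under 0.05, the dehydratase gene Hacd3 (listed as Ptplad1), at 236 ± 43.4 CPM (SD, n = 3) with 179 ± 13.6 CPM in controls (log2 fold change 0.41, unadjusted p = 0.00847, adjusted p = 0.296 by edgeR). Of 8 other desaturase genes and their electron donors, Cyb5b stood higher (log2 fold change 0.25, unadjusted p = 0.0358) and the ceramide desaturase Degs1 lower (−0.42, unadjusted p = 0.0308). None of 5 genes of mitochondrial fatty acid synthesis had an unadjusted p under 0.05.

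Of 7 genes of NADPH supply, both oxidative enzymes of the pentose phosphate pathway stood lower at an unadjusted p under 0.05, where 4.16% of all genes did. G6pdx, its first enzyme, was at 103 ± 10.5 CPM against 134 ± 15.5 CPM, and Pgd at 168 ± 17.7 CPM against 204 ± 25.0 CPM (adjusted p = 0.280 and 0.496 by edgeR). Of 12 genes of SREBP and LXR control, 2 stood lower at that threshold. Insig1, an SREBP target that retains the SREBP precursor, was at 194 ± 21.9 CPM against 263 ± 55.7 CPM (log2 fold change −0.44, unadjusted p = 0.0119, adjusted p = 0.344 by edgeR). Mbtps2, a protease that releases SREBP, was at 32.1 ± 2.86 CPM against 40.8 ± 6.08 CPM (log2 fold change −0.35, unadjusted p = 0.0389, adjusted p = 0.496 by edgeR). Of 8 genes of AMPK and carboxylase control only the AMPK subunit gene Prkab1 stood lower at that threshold (log2 fold change −0.43, unadjusted p = 0.00775, adjusted p = 0.285 by edgeR).

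Of 11 tested genes of fatty acid uptake and binding 1 stood lower at an unadjusted p under 0.05, where 4.16% of all genes did. This was the fatty acid binding protein gene Fabp5, at 181 ± 49.6 CPM against 318 ± 61.3 CPM. Its adjusted p was 0.211 by edgeR and 0.00317 by DESeq2, with a range from 0.00317 to 0.442 over the alternatives. Of 8 tested thioesterase genes 2 stood higher at that threshold, where 5.07% of all genes did. Acot7, which cuts acyl-CoA back to free fatty acid, was at 265 ± 17.9 CPM against 178 ± 32.9 CPM, and Acot11 at 21.2 ± 1.37 CPM against 16.0 ± 2.68 CPM. Acot7 had an adjusted p of 0.101 by edgeR and 0.0102 by DESeq2, with a range from 0.0102 to 0.536. Of 5 tested genes of other acyl-CoA synthetases Acsm1 stood higher (log2 fold change 0.94, unadjusted p = 0.0241) and the acetoacetyl-CoA synthetase Aacs lower (−0.52, unadjusted p = 0.0340). Their adjusted p was 0.428 and 0.473 by edgeR.

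None of the markers of other cell types passed edgeR's adjusted p of 0.05 (smallest 0.127), though some had an unadjusted p under 0.05. DESeq2 called 2 AT1 markers, 1 macrophage marker and 1 lipofibroblast marker, and 1.67% of all genes. Of 5 fibroblast markers 4 stood higher at an unadjusted p under 0.05, where 5.07% of all genes did. The 5 summed to 989.7 to 1506 CPM in Abca3 cKO against 711 to 972 CPM in controls, the direction of Elovl1 and Acly. All 8 AT1 markers had a negative log2 fold change, as 49.7% of all genes tested did. At an unadjusted p under 0.05, 3 of them stood lower, where 4.16% of all genes did. The 8 summed to 1898 to 2693 CPM against 2499 to 3304 CPM, the direction of Acsl3, Slc25a1, Scd2 and Fads1. All 5 ciliated, all 4 tested macrophage and both tested lymphocyte markers also had a negative log2 fold change. Of the 10 AT2 markers 8 had a positive log2 fold change, the direction of Elovl1. In 6 all Abca3 cKO values lay above all controls (7.34% of all genes). At an unadjusted p under 0.05, 5 stood higher (5.07% of all genes) and Sftpc lower (4.16%). Napsa, a protease that processes surfactant protein, passed the adjusted threshold (log2 fold change 0.66, edgeR adjusted p = 0.0265). DESeq2 called 3 of the 10, where it called 1.67% of all genes. The 9 macrophage markers summed to 103 to 117 CPM against 138 to 144 CPM, mostly from Lpl and Plet1, and Plet1 stood lower (unadjusted p = 0.00125). Chil3 was highest in control replicate 2, at 16.9 CPM against 0.380 to 5.37 CPM in the rest. Marco had 0 counts in all Abca3 cKO libraries and 2, 21 and 2 in controls, and Siglecf and Ear2 had counts only in control replicate 2, 8 and 2. The 8 adipocyte markers, of a cell type rich in these enzymes, summed to 0.856 to 2.28 CPM against 0.386 to 1.69 CPM, with Lep at 0 counts throughout. Of 6 club cell markers only Hp stood higher (unadjusted p = 0.0128), of 5 lipofibroblast markers only Tcf21 did (unadjusted p = 0.00205), and none of the 5 ciliated, 5 endothelial, 6 lymphocyte and 5 erythrocyte markers had an unadjusted p under 0.05. The 4 globin genes listed had 0 counts in all libraries. The part of these markers in the differences of the fatty acid genes was not tested.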

How the data were processed

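RNA of AT2 cells was amplified with the NuGEN Ovation system and made into Nextera XT libraries, per the labels' protocols. The deposited counts are whole reads per gene, not normalized. The deposited RPKM values are scaled by length and depth by the authors. Cufflinks 2.0.2, DESeq, TopHat2 2.0.8, Bowtie2 2.1.0 and the mm10 build appear, without roles, in the submitters' processing notes. Which tool counted reads, with or without strand, is not given in the sources used here, so reads of overlapping genes may be shared. A further deposited sheet lists symbols with no values and was not used.

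Counts were tested over the whole table in R 4.3.3 with edgeR 4.0.16 (filterByExpr, TMM, robust quasi-likelihood F test, two-sided, Benjamini-Hochberg over 14477 genes, group as the only term). The SE is the size of the log2 fold change divided by the square root of F. DESeq2 1.42.0, limma 3.58.1 on log2(RPKM + 0.1) or log2(RPKM + 1), other scalings and filters, and leaving out each library were alternatives. The code was tested on simulated data. Positions, exon overlaps and 50-base words came from GENCODE M21 (GRCm38), promoters from RefSeq. Of the pathway lists 75 of 76 genes matched, 5 through RefSeq synonyms.

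Genes and lists were chosen with earlier results of these data known. All 32 genes are named. Every library's value is given for those with an unadjusted p under 0.05 or among the 2 highest RPKM of a class, and for Acss2, Thrsp, Elovl2, Elovl4, Elovl5, Elovl7, Acsl1 and Acsl6, chosen after their values were seen.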

Additional observations from a re-analysis of the deposited data

How the results depend on the processing

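No tested fatty acid gene passed edgeR's adjusted p of 0.05 under the other scalings, the filter of 1 CPM, without Scgb1a1 and Lars2, with the replicate block or on RPKM. The number passing was 1, Elovl1, without a count filter and with DESeq2, and 0 to 1 over the fits without 1 library. The number with an unadjusted p under 0.05 was 6, and 3 to 7 over those fits, lowest without control replicate 1. Of the other pathway genes 1 passed without a filter, 2 with DESeq2 and 0 to 1 over the fits without 1 library. The count over all genes, 55, became 132 without a filter, 241 with DESeq2, 22 on RPKM with limma at either pseudocount, 3 on RPKM without a filter and 21 to 50 over the fits without 1 library (21 without control replicate 1, 26 without replicate 1 and 27 without replicate 2 of Abca3 cKO). The cause of these shifts was not tested. With the replicate block 33 genes passed, no fatty acid gene did and 5 had an unadjusted p under 0.05. No sign was seen that the numbers pair the samples. Deviations of same-numbered libraries from their group means correlated at 0.0762, −0.0304 and −0.0272 across genes, and not every library correlated best with its own number. Deviations from a mean of 3 libraries depend on each other, so these values cannot show that the samples are unpaired.

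The sign of the log2 fold change held under every alternative for 16 of the 28 genes, among them the 6 with an unadjusted p under 0.05. For the other 12 it changed, none of them called. All alternatives reuse the same libraries, so a held sign adds no separate support for a difference. On RPKM Acacb was −0.07, −0.03 and −0.07 and Elovl6 0.00, 0.01 and 0.00 (pseudocount 0.1, pseudocount 1, and no filter). Without 1 library the log2 fold change ran from −0.30 to 0.08 for Mlxipl, −0.13 to 0.91 for Thrsp, −0.66 to 0.08 for Acss2 and −0.21 to 0.17 for Me1. It ran from −0.19 to 0.22 for Acacb, −0.14 to 0.05 for Fasn, −0.18 to 0.11 for Fads3, −1.85 to 0.72 for Elovl2 and −0.21 to 0.06 for Elovl6. For Acsl4 it ran from −0.01 to 0.21, for Acsf2 from −0.02 to 0.21 and for Acsf3 from −0.12 to 0.32. The median of the 28 stayed between −0.14 and −0.03. Low counts limit Elovl2, Elovl3, Elovl4, Acsl6 and Pnpla3.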
